A study of Mus musculus with 28 samples.

Results

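Differentiation of spermatogonia is marked by a switch in surface proteins. Thy1+ spermatogonia of the young testis are a fraction enriched for undifferentiated cells, which include the spermatogonial stem cells, and c-Kit+ spermatogonia are differentiating cells that carry the receptor for stem cell factor and are committed to meiosis. H3K27ac, an acetyl mark on histone H3, sits at active promoters and active enhancers, so a change in where it lies reports a change in which regulatory regions are in use. The comparison described here sets 4 c-Kit+ libraries against 4 Thy1+ libraries, with genotype kept as a covariate, and asks which acetylated regions differ between both stages. These are 8 of the 28 libraries of the series.

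The cells compared came from testes of C57BL/6 mice at postnatal day 7. Each of both stages was taken from WT and from KO mice, with 2 libraries in each of the 4 groups, where WT is wild type and KO carries a knockout of Scml2, a Polycomb protein of the male germline. H3K27ac was profiled by ChIPmentation, in which a transposase adds the sequencing adapters to immunoprecipitated chromatin on the beads. The labels name magnetic sorting and sedimentation as the isolation methods and do not say how many mice went into a library, so p-values measure the spread between these libraries, which may be technical. H3K27ac libraries of adult pachytene spermatocytes (PS) and round spermatids (RS), 2 each and all KO, and 16 input libraries served as readouts outside the comparison.

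Overlapping peaks of the 8 libraries were merged into 58195 regions, of which 9585 carried a peak in every library. The value of a region in a library is its highest deposited fold enrichment, a ratio of peak height to the background height of that library. Peak numbers ranged from 17877 to 34681 in Thy1+ and from 19638 to 36362 in c-Kit+ libraries, and read depth is unknown. One library stood apart in level: the median log2 fold enrichment over the shared regions was 4.11 in Thy1+ KO replicate 1 and 3.01 to 3.44 in the other 7. The mean of these medians was 0.27 lower in c-Kit+ (3.21) than in Thy1+ (3.48), and 0.06 lower without that library. Each library was therefore centred on its own median, and every change below is relative to the median shared region.

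Sequences are shown for the miRNA gene at the top of the list and for promoters that differed between stages. MicroRNAs are short RNAs that pair with messenger RNAs through their seed, bases 2 to 8, which stands in capitals. The first pair is made from Mir202, a gene known for its expression in gonads, and the other pair from Mir142, a gene known for its expression in blood cells, whose hairpin lies in a region called only in Thy1+ libraries. Mir142 was chosen after its values were seen.

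mmu-miR-202-3p: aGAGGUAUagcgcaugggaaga
mmu-miR-202-5p: uUCCUAUGcauauacuucuuu
mmu-miR-142a-3p: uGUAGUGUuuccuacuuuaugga
mmu-miR-142a-5p: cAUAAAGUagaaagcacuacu

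The seed of miR-202-3p is shared by 2 mature miRNAs of the RefSeq table, itself included, and each of the other 3 seeds belongs to 1. Sequences are from RefSeq on GRCm38.p6.

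Promoter windows of 300 bases, 250 before and 50 after a RefSeq start, are printed 5′ to 3′ on the strand of the gene. They are shown for a leading region of each kind that overlapped an available window of its own gene. The promoters of Clcf1, Cpt1b and Gm12228 ranked higher and had no such window, and Mef2c lies past the 12 regions named below. Capitals mark, on either strand, the GC box GGGCGG (bound by SP and KLF factors), CCAAT (bound by NFY) and AGGTCA (a motif of nuclear receptors). Mgst1, a microsomal glutathione transferase, was higher in c-Kit+; its window is chr6:138141337-138141636 (+) and holds none of the 3 motifs.

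Mgst1: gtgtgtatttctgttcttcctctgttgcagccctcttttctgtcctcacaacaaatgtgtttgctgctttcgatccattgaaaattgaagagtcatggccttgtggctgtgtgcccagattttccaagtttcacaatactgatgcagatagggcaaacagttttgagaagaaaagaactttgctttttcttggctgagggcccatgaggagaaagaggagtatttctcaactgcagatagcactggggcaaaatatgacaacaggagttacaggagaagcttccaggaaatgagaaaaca

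Tgfbr2, the type II receptor for TGF-beta, was lower in c-Kit+; its window, chr9:116175314-116175613 (-), holds 2 CCAAT motifs.

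Tgfbr2: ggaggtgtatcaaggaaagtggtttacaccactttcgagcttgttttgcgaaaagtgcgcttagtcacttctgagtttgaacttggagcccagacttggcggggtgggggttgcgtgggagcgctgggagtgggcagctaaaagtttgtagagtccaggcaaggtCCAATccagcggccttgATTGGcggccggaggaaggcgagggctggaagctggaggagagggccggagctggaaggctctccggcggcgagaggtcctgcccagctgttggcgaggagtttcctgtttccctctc

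Vav3, a guanine nucleotide exchange factor, had a promoter peak in Thy1+ libraries only; its window, chr3:109340511-109340810 (+), is 78% G and C and holds 6 GC boxes.

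Vav3: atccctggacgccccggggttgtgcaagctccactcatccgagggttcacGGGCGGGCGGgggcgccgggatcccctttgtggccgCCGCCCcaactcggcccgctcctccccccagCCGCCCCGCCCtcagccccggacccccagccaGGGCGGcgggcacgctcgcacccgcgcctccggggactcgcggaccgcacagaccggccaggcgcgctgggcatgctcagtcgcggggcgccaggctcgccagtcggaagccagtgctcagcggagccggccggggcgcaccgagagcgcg

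A start of Mef2c, a transcription factor of muscle and other lineages, lay in a region called only in c-Kit+ libraries, which the deposited tables class as intron. Its window, chr13:83573357-83573656 (+), holds 2 AGGTCA motifs.

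Mef2c: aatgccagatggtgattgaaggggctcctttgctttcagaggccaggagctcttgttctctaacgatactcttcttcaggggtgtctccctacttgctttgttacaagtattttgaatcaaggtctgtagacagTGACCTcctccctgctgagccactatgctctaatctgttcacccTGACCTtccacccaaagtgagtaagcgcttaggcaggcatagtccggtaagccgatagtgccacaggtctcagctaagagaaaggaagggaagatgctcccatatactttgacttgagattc

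Cyp11a1, the side-chain cleavage enzyme that starts steroid synthesis from cholesterol, had promoter peaks in c-Kit+ libraries only and was added after its values were seen. Its window, chr9:58014702-58015001 (+), holds 1 AGGTCA motif.

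Cyp11a1: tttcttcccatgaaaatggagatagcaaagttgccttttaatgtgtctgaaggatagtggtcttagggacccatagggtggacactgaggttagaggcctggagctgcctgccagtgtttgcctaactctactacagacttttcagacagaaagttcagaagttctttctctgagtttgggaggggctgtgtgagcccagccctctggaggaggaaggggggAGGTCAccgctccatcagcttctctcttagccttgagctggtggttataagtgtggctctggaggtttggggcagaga

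At the 9585 shared regions, acetylation was higher in c-Kit+ at 77 (0.803% of those tested) and lower at 27 (0.282%), by limma with a Benjamini-Hochberg adjusted p under 0.05 (1.09% in either direction). The regions of higher acetylation were led by Mir202, Mgst1 and Sh2d4a, and those of lower acetylation by Clcf1, Tgfbr2 and Smtn. Differences were moderate: the median was 0.75 on the log2 scale (0.60 to 1.30) for the higher regions and -0.67 (-0.93 to -0.58) for the lower ones, against 0.01 over all tested regions. The centred values of the 4 and 4 libraries did not overlap at 73 of the higher and 26 of the lower regions, beside 4.51% and 3.42% of all tested regions. The count rests on single libraries. It was 9, all higher, without Thy1+ WT replicate 1, 178 without Thy1+ WT replicate 2, 46 without c-Kit+ WT replicate 2, 34 without Thy1+ KO replicate 1, 28 without c-Kit+ KO replicate 1 and 34 without c-Kit+ KO replicate 2. Higher regions were 74.0% of the calls with median centring and 63.4% with quantile normalization (45 higher, 26 lower). Without centring no region passed, with 932 at an unadjusted p under 0.05 against 1358 with centring; all 77 and 27 kept their sign.

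**Figure D1:**
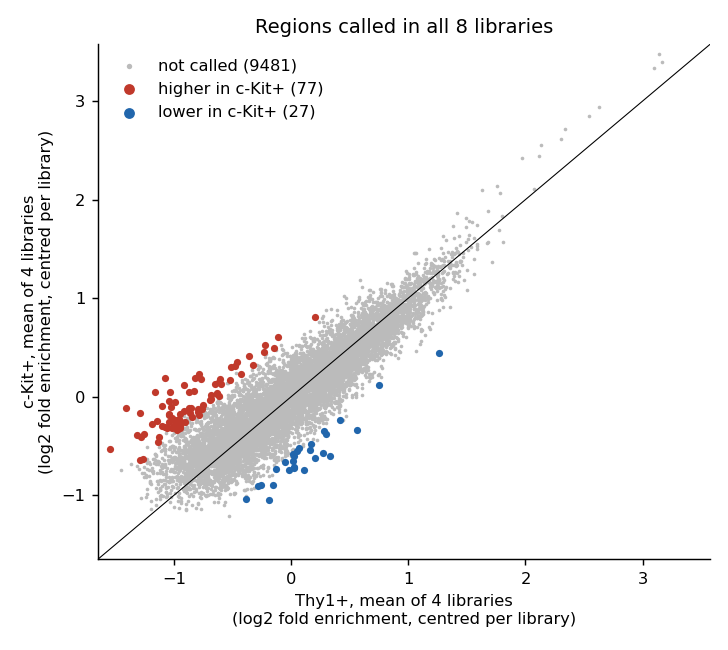
Mean centred log2 fold enrichment over the 4 Thy1+ libraries (x axis) and the 4 c-Kit+ libraries (y axis) of each of the 9585 regions called in all 8 libraries; the line marks equal values. The 77 regions higher in c-Kit+ (red) lie above the line, mostly at Thy1+ levels below the library median, and the 27 lower ones (blue) lie below it.

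The strongest difference was found 3622 bp from the listed start of Mir202, at chr7:139961382-139962585. Fold enrichment was 3.67 and 3.62 in Thy1+ WT, 4.56 and 5.12 in Thy1+ KO, 10.8 and 8.06 in c-Kit+ WT and 10.4 and 5.83 in c-Kit+ KO. Both Thy1+ WT values were the lowest of any peak in their library, so a lower level could not have been recorded there. Every c-Kit+ library was above every Thy1+ library. The difference was 1.30 ± 0.18 (SE) on the log2 scale (limma adjusted p = 0.00088), and it passed in all 8 fits that left out 1 library. At the same locus, 3 further stretches were called in 4 of 4 c-Kit+ libraries and in no Thy1+ library. One of them, chr7:139957278-139957802, contains the miR-202 hairpin, from which both sequences above are cut; fold enrichment there was 4.56 and 4.34 in c-Kit+ WT and 4.26 and 4.08 in c-Kit+ KO. All 4 stretches of the locus were called in both PS libraries and in neither RS library. A region further off at the same gene, chr7:139949821-139951468, differed by 0.07 (limma adjusted p = 0.89).

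Mgst1, at chr6:138140114-138142233, was the leading promoter. Its fold enrichment was 4.19 and 4.22 in Thy1+ WT, 7.59 and 5.76 in Thy1+ KO, 12.5 and 7.44 in c-Kit+ WT and 12.8 and 10.5 in c-Kit+ KO. The raw values overlap, since Thy1+ KO replicate 1 reached 7.59, and the centred values do not. The difference was 1.28 ± 0.16 (SE; limma adjusted p = 0.00021). Prss35, which encodes a protease-like secreted protein, had 5.24, 4.83, 7.59 and 6.40 in the Thy1+ libraries (WT replicates, then KO replicates) and 9.69, 9.92, 11.3 and 9.33 in the c-Kit+ libraries in the same order. No c-Kit+ value fell to the Thy1+ range, and the difference was 1.03 ± 0.16 (SE; limma adjusted p = 0.0021).

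The other 9 named regions higher in c-Kit+ differed by 0.95 to 1.13. They were the promoters of Sh2d4a, an adaptor with an SH2 domain, of Igsf11, a cell adhesion protein of the immunoglobulin superfamily, and of Gm5595; introns of Wsb2, Zmat5, Trim30d and Rere, the last a transcriptional corepressor; and sites near Mir135a-2 and near Derl1 and Wdr67. At Igsf11 the groups overlapped, because c-Kit+ WT replicate 1 (5.70) sat at the Thy1+ level. At Zmat5, at Sh2d4a and near Derl1 and Wdr67, some Thy1+ values were the lowest of any peak in their library. Of the 12 named regions, 5 passed in each of the 8 fits that left out 1 library: those at Mir202, Mgst1, Wsb2, Prss35 and Trim30d. Past the 12, 2 further regions passed in each of those fits: one near 4921511C10Rik, and one near Hjurp that overlapped an input peak and was set aside.

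**Figure D2:**
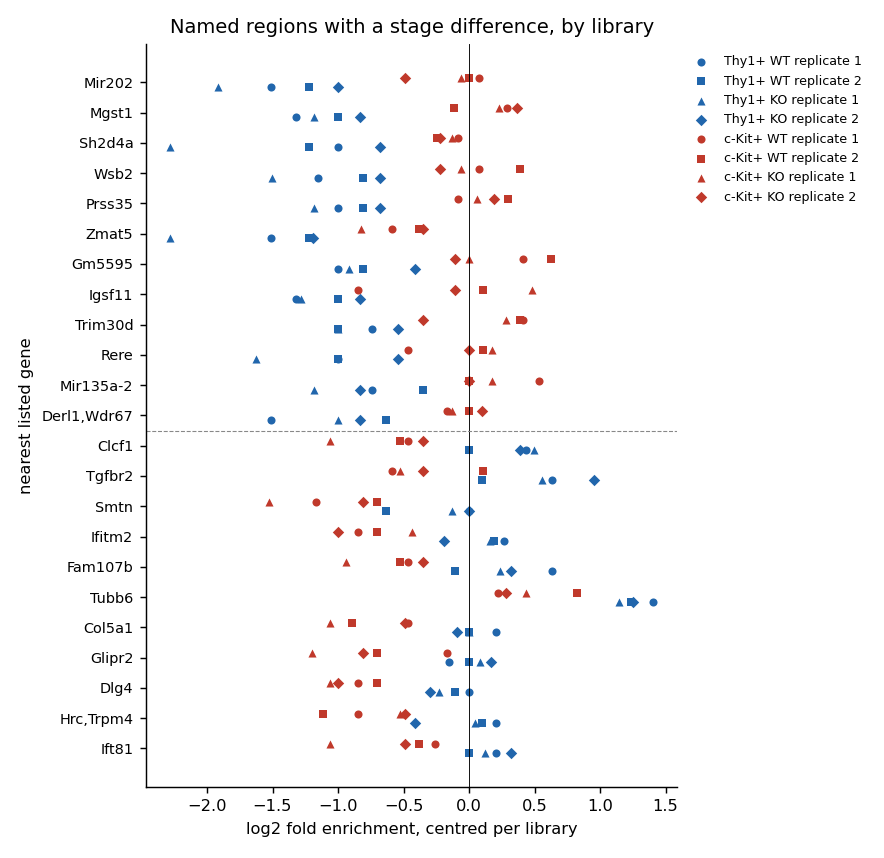
Centred log2 fold enrichment (x axis) in each of the 8 libraries for the named regions with the largest rises (top) and the largest falls (bottom) in c-Kit+, by nearest gene; red is c-Kit+, blue is Thy1+, and the marker shape gives genotype and replicate. The colours separate in every row but Igsf11 and Tgfbr2. WT and KO libraries of a stage are intermingled in some rows and lie apart in others, such as the c-Kit+ libraries at Gm5595, Wsb2 and Trim30d.

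Further down the list of higher regions stood genes of lipid and steroid handling. The promoter of Gramd1b, a carrier of cholesterol between membranes, differed by 0.69 (limma adjusted p = 0.0315) and that of Nceh1, a cholesterol ester hydrolase, by 0.78 (limma adjusted p = 0.013). Fdx1 encodes the ferredoxin that passes electrons to the side-chain cleavage enzyme. Its promoter, chr9:51961811-51964941, had fold enrichments of 7.34, 7.84, 17.7 and 10.2 in Thy1+ and 14.3, 10.5, 15.6 and 12.2 in c-Kit+ libraries, a difference of 0.64 ± 0.15 (SE; limma adjusted p = 0.038). Thy1+ KO replicate 1 held the highest raw value of all 8, and after centring each c-Kit+ value was above each Thy1+ value. Akr1cl, an aldo-keto reductase, differed by 0.80 (limma adjusted p = 0.017). These genes were picked from the called regions after their values were seen.

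Transcription factors and receptors were also among the higher regions, and were likewise picked from the list. Gata4, a zinc finger factor of Sertoli and Leydig cells, had 2 such regions, at its promoter (chr14:63243670-63247091, 0.64 ± 0.16, limma adjusted p = 0.045) and 3287 bp from the start (chr14:63239313-63241973, 0.77 ± 0.16, limma adjusted p = 0.019). Promoter fold enrichment was 9.43, 6.03, 11.6 and 9.59 in Thy1+ and 11.97, 11.8, 12.8 and 9.91 in c-Kit+ libraries, so each c-Kit+ value but that of KO replicate 2 was above every Thy1+ value. Cebpa, a factor of metabolic gene control, differed by 0.66, Ppara, the receptor for fatty acids, by 0.65, and Nr1d1, a repressor of the circadian clock, by 0.60 (limma adjusted p = 0.035, 0.046 and 0.046). Bmp2, a ligand of the TGF-beta superfamily, differed by 0.87 (limma adjusted p = 0.01) and Met, the receptor for hepatocyte growth factor, by 0.66 (limma adjusted p = 0.031).

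Of the 27 regions lower in c-Kit+, 23 (85.2%) lay at promoters, near the share of all tested regions (87.1%). They were led by genes of signalling and the cytoskeleton. Clcf1, a cytokine of the interleukin 6 family, had fold enrichments of 14.1 and 8.45 in Thy1+ WT, 24.3 and 13.4 in Thy1+ KO, 7.41 and 5.58 in c-Kit+ WT and 5.20 and 6.41 in c-Kit+ KO (chr19:4213264-4215794). All 4 c-Kit+ values were below all 4 Thy1+ values, and the difference was -0.93 ± 0.17 (SE; limma adjusted p = 0.01). Tgfbr2, whose promoter is printed above, had 16.2, 9.05, 25.3 and 19.8 in Thy1+ and 6.84, 8.68, 7.57 and 6.41 in c-Kit+ libraries (chr9:116173966-116176093). Its centred values overlapped at WT replicate 2 of both stages, and the difference was -0.90 ± 0.18 (SE; limma adjusted p = 0.016). Tubb6, a beta tubulin on chromosome 18, was the most acetylated of the lower regions named here, at 19.9 to 38.0 in Thy1+ and 9.91 to 14.7 in c-Kit+ libraries (-0.82 ± 0.16 SE, limma adjusted p = 0.012).

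The other 8 lower regions named here differed by -0.86 to -0.71. They lay at Smtn, a smooth muscle cytoskeletal protein, Col5a1, a fibrillar collagen, Ifitm2, an interferon-induced membrane protein, Ift81, a subunit of intraflagellar transport, Dlg4, a synaptic scaffold, Fam107b, Glipr2, and the pair Hrc and Trpm4. Receptors for matrix and lipid ligands followed and were picked from the list after their values were seen. Cd44, the hyaluronan receptor, had 8.91, 6.03, 14.7 and 9.59 in Thy1+ against 5.13, 5.58, 5.20 and 4.08 in c-Kit+ libraries, with no overlap (-0.64 ± 0.16 SE, limma adjusted p = 0.049). Itga4, an integrin subunit, differed by -0.66, S1pr2, a receptor for sphingosine phosphate, by -0.64, and Flnc, a filamin, by -0.60 (limma adjusted p = 0.037, 0.045 and 0.045). At Itga4 the value in c-Kit+ KO replicate 2 (3.50) was the lowest of any peak in that library. The same held at Hrc and Trpm4 in c-Kit+ WT replicate 2 (3.72). None of the 27 passed without Thy1+ WT replicate 1.

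Higher and lower regions differed in position. Of the 1240 tested regions over 1000 bp from a listed start, 2.26% were higher in c-Kit+ and 0.323% lower; of the 8345 nearer a start, 0.587% were higher and 0.276% lower. Distal regions thus made up 28 of 77 higher and 4 of 27 lower regions, and this contrast between positions carries no test. The median difference over all tested distal regions was 0.11, against 0.00 over promoters. One higher region and no lower region was on the X chromosome, which holds 211 of the tested regions.

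No stage difference was found to differ between genotypes. No region had a stage by genotype interaction at an adjusted p under 0.05 (0% of 9585; limma), 453 had an unadjusted p under 0.05, and the smallest adjusted p was 0.165. All 104 called regions had the same sign in WT and in KO libraries, a property that the pooled fit favours. At the Mir202 region the stage difference was 1.41 in WT and 1.18 in KO.

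Regions called in at least 3 of 4 libraries of one stage and in none of the other numbered 1007 for c-Kit+ (1.73% of 58195 merged regions) and 430 for Thy1+ (0.739%). Their calls chose them, so their levels are a description. They were weak: the median over regions of the median fold enrichment was 4.69 for c-Kit+ only and 5.12 for Thy1+ only. Peaks began at 3.31 to 3.84 in the 8 libraries. In c-Kit+, 250 were called in 4 of 4 libraries and 757 in 3 of 4, and c-Kit+ WT replicate 2, which has the fewest peaks of the stage, lacked 436 of the 1007. In Thy1+, 82 were called in 4 of 4 and 348 in 3 of 4, and Thy1+ KO replicate 1 lacked none of the 430. Just outside the rule lay 2411 regions called in 2 c-Kit+ and no Thy1+ libraries, 604 in 3 c-Kit+ and 1 Thy1+, 1438 in 2 Thy1+ and no c-Kit+, and 323 in 3 Thy1+ and 1 c-Kit+.

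Which stage had more regions of its own depended on peak strength. Among peaks of fold enrichment 5 or more the counts were 249 for c-Kit+ and 366 for Thy1+, and with the strongest 17877 peaks of each library they were 548 and 551. With 1 library left out, calls in at least 3 libraries were still required, so the stage left with 3 needed all of them. That rule by itself lowers the count of this stage and raises that of the other. The counts without a library therefore do not show how far the lists rest on it. Leaving out Thy1+ KO replicate 1 gave 1868 and 94, and leaving out c-Kit+ KO replicate 1 gave 270 and 703. Without c-Kit+ WT replicate 1 they were 319 and 588, without c-Kit+ KO replicate 2 475 and 467, without Thy1+ WT replicate 1 1034 and 177, and without Thy1+ KO replicate 2 1081 and 133. No order of the stages is therefore read from these counts.

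**Figure D3:**
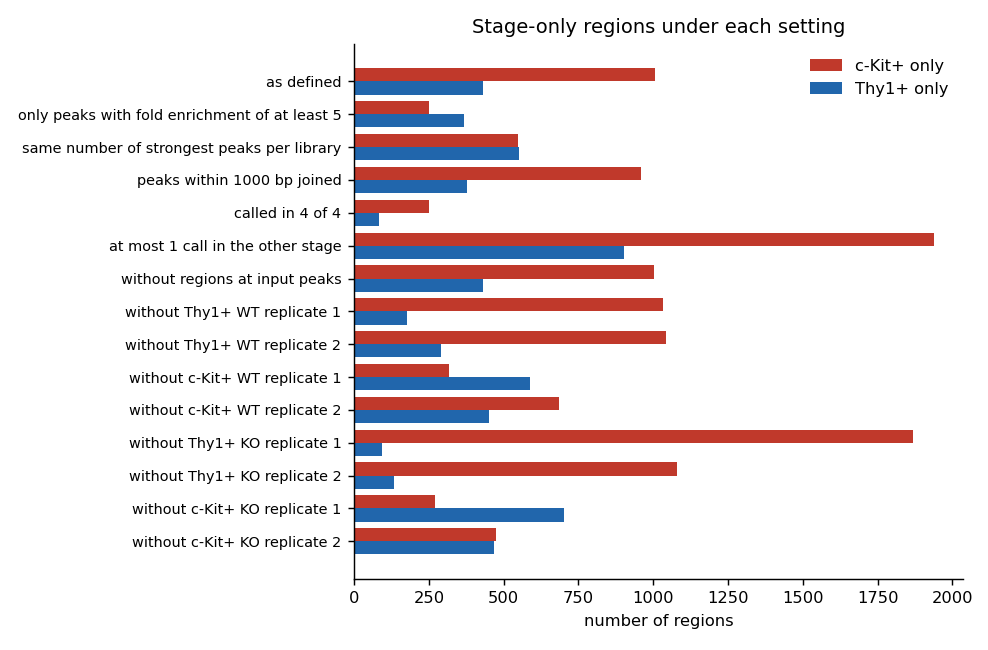
Number of regions (x axis) called in at least 3 of 4 libraries of one stage and in none of the other, for c-Kit+ (red) and Thy1+ (blue), as defined and under each other setting. With 1 library left out, the stage that lost it needed calls in all 3 left, which by itself shortens its bar. The bar for c-Kit+ is the longer one as defined (1007 against 430) and the shorter one among peaks of fold enrichment 5 or more (249 against 366) and without c-Kit+ KO replicate 1 (270 against 703).

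Peak numbers themselves overlapped between stages. The mean log2 difference was 0.24, a ratio of 1.18, with a 2-sided exact permutation p of 0.222 for stage permuted within genotype, where 0.0556 is the smallest p possible. The share of peaks within 1000 bp of a listed start was 60.0% ± 13.3 (SD, n = 4) in Thy1+ and 52.6% ± 11.7 (SD, n = 4) in c-Kit+ libraries, a difference of -7.36 points (exact permutation p = 0.222). With 2 such tests, both p-values remained 0.222 after Benjamini-Hochberg adjustment. Among peaks of fold enrichment 5 or more both differences turned, to -0.10 and 0.03 points (exact permutation p = 0.667 and 1).

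Position differed between the lists as it did between the tested regions. Of the c-Kit+ only regions 6.06% (61) lay within 1000 bp of a listed start and 67.9% over 10000 bp from one, while of the Thy1+ only regions 28.8% (124) lay within 1000 bp and 45.6% over 10000 bp. Among all merged regions 26.0% lay within 1000 bp of a start. The lower promoter share of the c-Kit+ only regions was found in each of the 4 other settings tried, at 10.7% to 16.9% against 30.9% to 45.7%. Of the c-Kit+ only regions 18 (1.79%) lay within 10000 bp of a region that was higher in c-Kit+, against 0.620% of all merged regions and 1 of the 430 Thy1+ only regions. The reverse was not seen: 0 of the 430 Thy1+ only regions lay within 10000 bp of a region lower in c-Kit+, against 0.187% of all merged regions. Both kinds of region come from the same 8 libraries, so their nearness is a description.

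Among the regions called in 4 of 4 c-Kit+ libraries and no Thy1+ library, that with the highest level was intergenic, near 2610034M16Rik, at 8.55, 6.20, 8.99 and 8.16 (WT replicates, then KO replicates). The next was 3105 bp from a start of Gramd1b (8.55, 6.20, 6.62 and 7.00), whose promoter is among the higher regions above. The promoter of Cpt1b, the muscle form of the carnitine palmitoyltransferase that brings fatty acids into mitochondria, had 6.84, 5.58, 6.62 and 9.33. That of Gm12228 was the only other promoter of the 12 named, which also lay near Nav2, Asgr2, Gm5622, Akr1cl, Efcc1, Zfp648, Mbnl2 and Grb14. Their fold enrichments ran from 4.34 to 10.9, and 10 of the 12 were called in both PS libraries.

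A few genes held several c-Kit+ only regions: 40 of 815 genes had 3 or more, beside 8 of 384 genes in the shorter Thy1+ list. Genes with many merged regions, such as Gramd1b with 84, have more chances to hold several. Acsbg1, an acyl-CoA synthetase, Akr1cl, Ccdc122 and Gramd1b had 5 each. Akr1cl held its 5 within 14647 bp, beside a promoter that was itself higher in c-Kit+. Soat1, which esterifies cholesterol, and Hk2, a hexokinase, had 4 each, and Grb14, an adaptor that restrains the insulin receptor, had 4 within 13024 bp, 3 of them called in 4 of 4 libraries. The promoter of Grb14 differed by 0.23 (limma adjusted p = 0.59) and that of Soat1 by -0.03 (limma adjusted p = 0.95).

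Thy1+ only regions called in 4 of 4 libraries were led by the Vav3 promoter printed above, at 8.38, 7.24, 8.61 and 7.03. A region 31517 bp from the start of Col1a1, a chain of type I collagen, had 6.29, 7.24, 10.1 and 6.40. Promoters among the 12 also included those of Pigz, an enzyme of lipid anchor synthesis, Lgals9, a galectin, Thbs2, a thrombospondin of the extracellular matrix, Pcdh7, a protocadherin, and Mrgprf, a G protein-coupled receptor. Distal ones lay near Psd2, the S100a2 to S100a5 cluster, Best1 and Rab3il1, Spsb1 and A4galt. The 12 regions ranged from 4.72 to 10.2. The Mir142 region, chr11:87755941-87757386, had 5.76, 4.22, 9.62 and 5.76 and was called in all 4 adult libraries.

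Genes with 3 Thy1+ only regions included Dlk1, an imprinted regulator of Notch signalling, Gata2, a haematopoietic and endothelial transcription factor, Npr3, a receptor that clears natriuretic peptides, and Rxra, the partner of retinoic acid receptors. At Gata2, 2 of the 3 lay within 1000 bp of a start, whereas a region 45819 bp from a start, chr6:88151808-88152845, was called in all 8 libraries and differed by 0.23 (limma adjusted p = 0.55). Regions of both kinds lay nearest to 17 genes. Sh3pxd2a, a scaffold protein of invasive cell protrusions, had 3 of each. Its Thy1+ only regions lay within chr19:47318999-47329093, each called in 4 of 4 libraries, and its c-Kit+ only regions on either side, with the nearest at chr19:47304350-47304605; the promoter differed by -0.11 (limma adjusted p = 0.82).

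The adult libraries were not used to choose any region and give a separate readout. Of the c-Kit+ only regions 71.1% and 72.6% overlapped a PS peak (replicates 1 and 2) and 22.0% and 15.7% an RS peak. Over all merged regions the shares were 53.2% and 49.3% in PS and 45.0% and 37.7% in RS. For Thy1+ only regions the shares were 58.6% and 43.0% in PS and 68.6% and 58.8% in RS. The c-Kit+ only list was thus found more in PS than in RS, and the Thy1+ only list more in RS than in PS, in both libraries of each. PS and RS libraries had 64056 to 69042 and 63322 to 73316 peaks. In all, 424 of the 1007 c-Kit+ only regions (42.1%) were called in both PS and neither RS library and none in both RS and neither PS library, while for Thy1+ only regions the counts were 8 and 42 of 430 and for all merged regions 5305 and 1415 of 58195.

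The same order was seen away from promoters. Among regions over 1000 bp from a start, the c-Kit+ only shares were 70.7% and 72.4% in PS and 21.9% and 15.2% in RS, and the Thy1+ only shares 56.5% and 40.5% in PS and 67.3% and 57.5% in RS. Over all merged distal regions they were 41.0% and 36.8% in PS and 30.9% and 23.0% in RS. Distal regions called in at least 3 of 4 libraries of both stages were at 95.4% and 92.3% in PS and 91.3% and 84.3% in RS. Under the 4 other settings tried, the mean share of c-Kit+ only regions was 76.7% to 84.5% in PS and 25.6% to 31.9% in RS, and that of Thy1+ only regions 47.9% to 70.9% in PS and 67.7% to 77.0% in RS. Library by library, the order of the Thy1+ only shares held without Thy1+ KO replicate 1 only; in the other 3 settings PS replicate 1 was above RS replicate 2 (77.9% and 72.1%, 70.8% and 67.0%, 66.1% and 62.6%). The adult libraries are all KO, so WT cells of these stages were not compared.

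**Figure D4:**
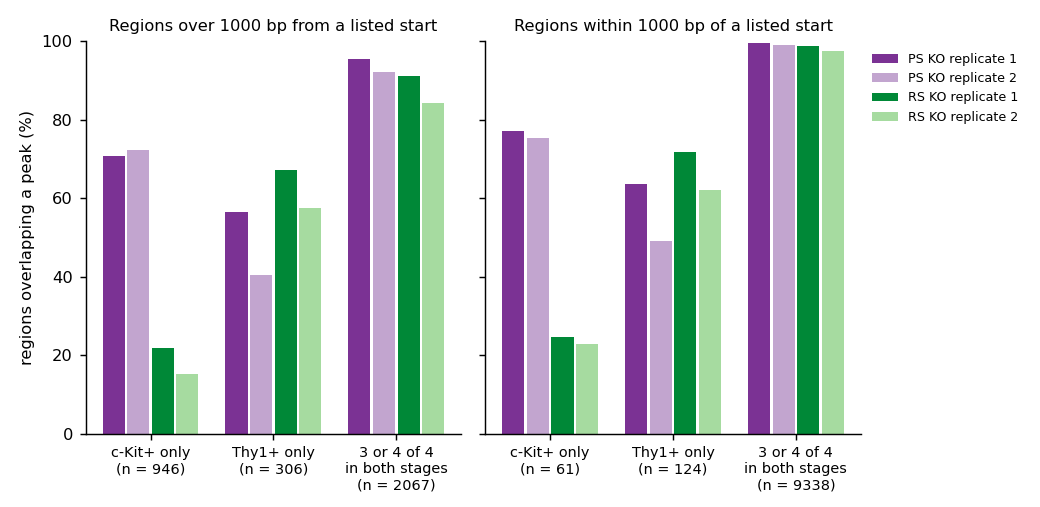
Share of regions (y axis, percent) that overlap a peak in each of the 2 PS and 2 RS libraries of adult KO mice, for c-Kit+ only regions, Thy1+ only regions and regions called in at least 3 of 4 libraries of both stages, split by distance to a listed start. The c-Kit+ only bars stand at 70.7% or more in PS and 24.6% or less in RS; the Thy1+ only bars are on average higher in RS than in PS.

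The tested regions showed part of the same order. Of the 77 higher regions, 77 and 76 were called in PS against 68 and 61 in RS, and of the 27 lower regions 25 and 24 in PS against 27 in each RS library. Nearly all tested regions were called in the adult libraries, 99.6% and 99.1% in PS and 99.0% and 97.9% in RS. The higher regions fell short of this mainly in RS (88.3% and 79.2%) and the lower ones in PS (92.6% and 88.9%). Over the regions called in a library, the median centred log2 fold enrichment of the higher ones was -0.58 and -0.67 in PS and -1.33 and -1.12 in RS. For the lower ones it was -0.54 and -0.67 in PS and -0.33 and -0.38 in RS, and over the other tested regions it was 0.00 to 0.05. Cd44 and Itga4 promoters were called in both RS libraries and in neither PS library. The region at Bmp2 and the Gata4 region 3287 bp from its start were called in both PS libraries and in neither RS library.

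Few promoters of genes known for spermatogonial identity could be tested. Of 30 genes of stem and undifferentiated spermatogonia 6 promoters could be tested, and of 22 differentiation genes 10; none passed in either direction, and the median differences were 0.08 and 0.04 against 0.01 over all tested regions. The same held for meiotic prophase (4 of 30 tested), the retinoic acid pathway (7 of 20), GDNF and FGF signalling (13 of 20), cell cycle genes (20 of 31) and the piRNA pathway (2 of 17), all with 0 passing in each direction by limma. At 1.09% of all tested regions passing, lists of this size hold few or no calls, so these counts set no list apart. At an unadjusted limma p under 0.05, 1 differentiation, 1 retinoic acid and 1 GDNF and FGF promoter were higher, 1 GDNF and FGF and 1 cell cycle promoter lower, and none of the stem, meiotic or piRNA lists. Testing needs a peak in all 8 libraries, so most germ cell markers were outside the test.

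Kit encodes the c-Kit receptor used to name the stage. Its promoter was called in 4 of 4 c-Kit+ libraries, at 8.55, 6.20, 8.99 and 4.66, and in 2 of 4 Thy1+ libraries, at 5.43 in WT replicate 2 and 6.58 in KO replicate 1. The levels overlap where both were called. A region in a Kit intron (chr5:75576114-75576595) and an intergenic one (chr5:75377281-75378731) were c-Kit+ only, each called in 3 of 4. The Thy1 promoter was called in none of the 8 libraries. Zbtb16, a zinc finger factor of undifferentiated spermatogonia, was called in 3 Thy1+ libraries (5.24, 6.03 and 8.10) and 1 c-Kit+ library (5.67). Gfra1, the co-receptor for GDNF, was called in Thy1+ KO replicate 1 alone (3.54), and Id4, Sall4 and Lin28a in 1 or 2 Thy1+ libraries that always included that one. Id4 and Sall4 were also called in c-Kit+ KO replicate 1 (3.78 and 4.26).

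Etv5, a transcription factor downstream of GDNF, was acetylated throughout, at 8.38 to 16.2 in Thy1+ and 8.16 to 12.4 in c-Kit+ libraries (difference 0.29, limma adjusted p = 0.44). Dazl, a germ cell RNA-binding protein, was at 7.24 to 13.2 and 5.58 to 8.51 (-0.05, limma adjusted p = 0.91), and Ccnd2, a cyclin, at 5.76 to 16.2 and 5.25 to 10.8 (0.03, limma adjusted p = 0.96). The germ cell genes Ddx4, an RNA helicase, and Mael, a piRNA factor, were called in 3 and 1 Thy1+ and in 2 and 1 c-Kit+ libraries. Stra8, the gatekeeper of meiosis, was called in c-Kit+ KO replicate 1 alone (3.78), Sohlh1 in 1 library of each stage and Rarb in Thy1+ KO replicate 1 alone. Promoters of Ret, Nanos2, Nanos3, Lhx1, Sohlh2 and Dmrtb1 were called in none; no start was listed for Ret. Dhrs3, an enzyme that limits retinoic acid, had the value 0.53 (limma adjusted p = 0.079).

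Counts at markers of somatic testis cells differed between the stages for some lists. Of the 10 Leydig and steroidogenic promoters 3 were tested and 1, that of Fdx1, passed as higher in c-Kit+. By promoter calls, 4 genes of this list had more in c-Kit+ and 0 more in Thy1+ libraries. In the same order, stem genes had 3 and 7, meiotic genes 3 and 8 and piRNA genes 0 and 7. Differentiation genes had 3 and 2, retinoic acid genes 2 and 4, GDNF and FGF genes 2 and 2, and cell cycle genes 3 and 4. Endothelial genes had 0 and 5 and blood cell genes 0 and 3. The share over all genes is not given here. The 10 genes of Leydig and steroidogenic cells had 5 to 7 promoters called in the c-Kit+ libraries and 3 to 5 in the Thy1+ libraries, with summed fold enrichments of 39.1 to 62.9 and 25.2 to 54.2. Star, the carrier of cholesterol into mitochondria, was called in 4 of 4 c-Kit+ libraries (6.27, 6.20, 5.67 and 5.83) and in Thy1+ KO replicate 1 (4.05). Cyp11a1 was called in 3 of 4 c-Kit+ (6.84, 6.20 and 6.15) and in no Thy1+ library, and 3 of the 6 merged regions listed nearest to the gene were c-Kit+ only. Lhcgr, the receptor for luteinizing hormone, had 3 c-Kit+ only regions and Hsd3b1, a steroid dehydrogenase, 2. In all, 10 of the 93 regions nearest to the list were c-Kit+ only and 0 Thy1+ only, beside 1.73% and 0.739% of all merged regions. Promoters of Cyp17a1, Hsd3b1 and Hsd17b3 were called in none of the 8 libraries, and Insl3 in c-Kit+ KO replicate 1 alone (4.73).

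Of 22 Sertoli cell genes 4 promoters were tested and 1, that of Gata4, passed as higher in c-Kit+. Called promoters numbered 7 to 15 in c-Kit+ and 7 to 14 in Thy1+ libraries, with sums of 56.6 to 109 and 43.4 to 123. By promoter calls, 8 genes of the list had more in c-Kit+ and 3 more in Thy1+ libraries. Of 127 regions nearest to these genes 6 were c-Kit+ only (4.72%) and 0 Thy1+ only, beside 1.73% and 0.739% of all merged regions. Of the 6, 2 lay at Kitl, the ligand of c-Kit, and the others at Gata4, Dhh, Inhbb and Ctsl. Sox9, the Sertoli cell determinant, was called in 3 of 4 libraries of each stage (7.34, 4.83 and 6.58 in Thy1+, 5.13, 3.72 and 5.20 in c-Kit+). Wt1 was called in 3 Thy1+ and 2 c-Kit+ libraries, Amh in 2 c-Kit+ libraries, and Rhox8, for which no start was listed, and Cldn11 in none.

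Peritubular and stromal genes were mixed. Of 110 regions nearest to 16 such genes, 6 were Thy1+ only (5.45%) and 0 c-Kit+ only, beside 0.739% and 1.73% of all merged regions. Des, the muscle intermediate filament, had a Thy1+ only promoter region in 4 of 4 libraries (5.24, 4.83, 8.61 and 5.76), and Pdgfrb, the platelet-derived growth factor receptor of mural cells, in 3 of 4 (4.72, 9.11 and 7.03). Col1a1 and Col1a2, the type I collagen chains, had 2 Thy1+ only regions each. Called promoters numbered 8 to 13 in Thy1+ and 7 to 10 in c-Kit+ libraries, with sums of 56.7 to 159 and 46.6 to 80.4. Among the fixed markers Acta2 and Col1a1 were called in 4 Thy1+ and 2 c-Kit+ libraries, Myh11 in 1 of each, and Pdgfra and Tcf21 in all 8 with differences of 0.15 and -0.25 (limma adjusted p = 0.76 and 0.54). None of the 5 tested promoters of the list passed. Other members had more calls in c-Kit+: Dcn, a matrix proteoglycan, was called in 4 c-Kit+ and 2 Thy1+ libraries, Col3a1, a fibrillar collagen, in 4 and 3, and Cnn1, a calponin, in 1 and 0. By promoter calls, 5 genes of the list had more in Thy1+ and 3 more in c-Kit+ libraries.

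Endothelial genes had 2 to 5 of 10 promoters called in Thy1+ and 1 to 2 in c-Kit+ libraries, with Pecam1, Tie1, Flt1 and Vwf called in none. Cdh5 was called in all 8 (0.14, limma adjusted p = 0.75) and Tek in Thy1+ KO replicate 2 alone. Blood cell genes had 0 to 4 of 14 called in Thy1+ and 0 to 1 in c-Kit+; Ptprc was called in both Thy1+ KO libraries and in no c-Kit+ library, Cd68 in Thy1+ KO replicate 1 alone and Adgre1, for which no start was listed, in none. Leydig promoters were called at 8 of 10 in each PS library and 4 of 10 in each RS library. Sertoli promoters were at 17 and 18 in PS against 9 and 7 of 22 in RS. Both had the direction of the c-Kit+ only list in the adult libraries. All merged regions within 1000 bp of a start had it too, at 87.9% and 85.2% in PS and 84.9% and 79.5% in RS. Endothelial promoters were at 6 and 6 against 4 and 3 of 10. Stromal ones were at 9 and 7 against 10 and 7 of 16, and blood ones at 4 and 2 against 8 and 8 of 14. The part of somatic cells in the stage differences, and in their recall in adult libraries, was not tested, and in sorted cells more cells of a type and more acetylation per cell cannot be told apart. No promoter of a marker gene had a peak in any input library.

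The counts moved under the 4 other settings tried. Among the regions nearest to Leydig genes, c-Kit+ only counts were 4 to 13 and Thy1+ only counts 0 in each, and at stromal genes the counts were 0 and 3 to 8. At Sertoli genes they were 0 and 0 with fold enrichment of 5 or more, 2 and 1 with equal peak numbers, 8 and 0 without Thy1+ KO replicate 1, and 1 and 0 without c-Kit+ KO replicate 1.

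**Figure D5:**
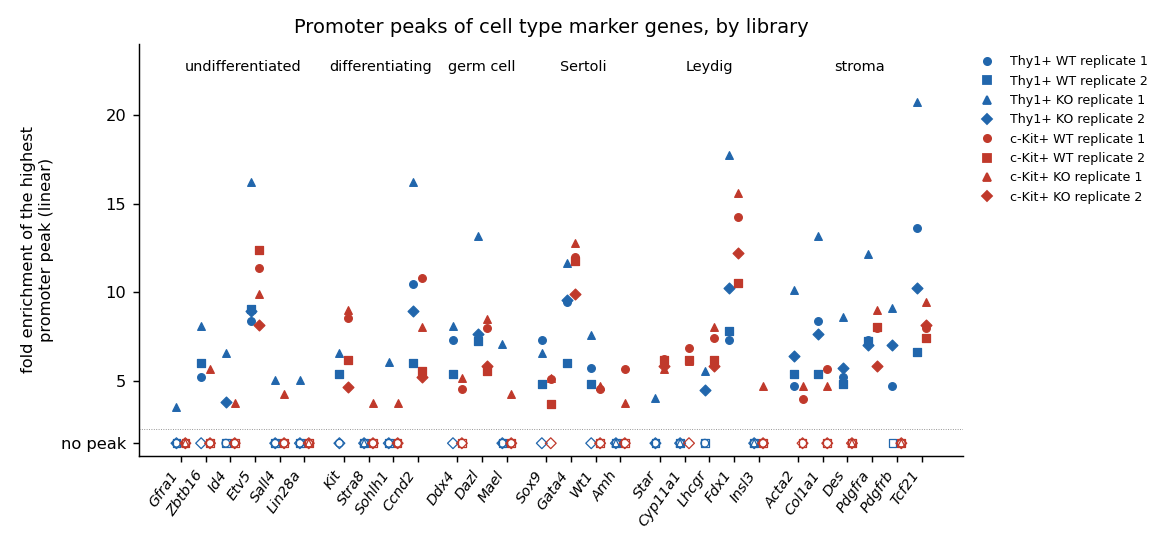
Fold enrichment of the highest promoter peak (y axis, linear) in each library for marker genes of 6 cell types; open symbols on the line labelled no peak are libraries without one, red is c-Kit+ and blue Thy1+. Star and Cyp11a1 carry peaks in 4 and 3 c-Kit+ libraries and in 1 and 0 Thy1+ libraries, while Des and Pdgfrb carry them in Thy1+ libraries only; Fdx1 and Lhcgr were added from the wider Leydig list, and Des and Pdgfrb from the stromal list, of which Dcn and Col3a1, with more c-Kit+ calls, are not drawn.

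Base composition was described for the RefSeq windows in each set, with no test. RefSeq windows that lay in tested regions had a median G and C content of 63.0% and a median ratio of observed to expected CpG of 0.82 (9917 windows). Median G and C content was 58.3% in windows of higher, 62.2% of lower, 51.7% of c-Kit+ only and 59.5% of Thy1+ only regions. The ratio was 0.62 in the 44 windows of higher regions and 0.61 in the 28 windows of lower regions, 0.37 in the 41 windows of c-Kit+ only regions and 0.53 in the 92 of Thy1+ only regions, beside 0.38 over all 32817 windows of the table. Cyp11a1 (0.05) and Mgst1 (0.07) among the printed promoters were nearly without CpG, whereas Vav3 was at 0.88.

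The motif shares below were picked after the values were seen, from a longer list searched on both strands. CCGGAA, the core bound by ETS factors, was in 32.8% of windows of tested regions, 15.9% of higher, 14.3% of lower, 4.88% of c-Kit+ only and 18.5% of Thy1+ only windows, and in 14.9% of all windows. The AGGTCA motif was in 12 of 41 c-Kit+ only windows (29.3%), against 10.8% of tested, 13.6% of higher, 10.7% of lower, 10.9% of Thy1+ only and 16.3% of all windows. The motif searched for SOX factors was also in 12 of 41 c-Kit+ only windows. It was in 11.5% of tested, 13.6% of higher, 10.7% of lower, 16.3% of Thy1+ only and 18.7% of all windows. GGGCGG was in 70.3% of tested, 61.4% of higher, 78.6% of lower, 29.3% of c-Kit+ only and 53.3% of Thy1+ only windows, and CCAAT in 37.1%, 38.6%, 35.7%, 41.5% and 32.6% in the same order.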

How the data were processed

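The deposited tables list called peaks per library, so replicates were not pooled. Per the file headers, the authors gave each peak's start, end, summit height (signal, a pileup), −log10 p-value, fold enrichment (a ratio), −log10 q-value, nearest transcript and class. Bowtie, MACS2 and mm10 are named in the submitters' processing notes; versions are not given in the sources used here. Within a library, fold enrichment is height plus 1 over a constant, so it holds no local or input control. Read depth is unknown.

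Members, lists and motifs were chosen with earlier results of these data known. Peaks that shared at least 1 bp in any of the 8 libraries were merged; mitochondrial peaks were left out. Regions called in all 8 were tested on log2 fold enrichment, centred per library, with limma 3.58.1 (R 4.3.3; stage plus genotype, eBayes, Benjamini-Hochberg adjusted p under 0.05). The labels do not say what a shared replicate number means, so no block was used. Peak numbers and promoter shares were compared by 2-sided exact permutation (36 arrangements). Other steps used pandas 2.3.3, scipy 1.17.1 and numpy 2.4.6 under Python 3.11.15. Tested on simulated data, the fit over 9585 regions recovered 90% of regions changed by 1 and 98% of those changed by 1.5 on the log2 scale, with 10 of 198 calls false. The simulated noise was independent between regions and libraries and had no floor. Changes below 1 were not simulated, while the median called differences were 0.75 and -0.67. These rates therefore need not hold for the deposited data.

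Regions carry the nearest gene listed in the deposited tables; promoters lie within 1000 bp of a listed start. Named by rule were the 12 largest rises and 12 largest falls past the threshold, and up to 12 regions per direction called in 4 of 4 libraries of one stage only, by mean level, input-overlapping regions set aside; other genes were named from gene lists or as stated. One of the falls is not reported here. No genome was used, so motifs were searched in RefSeq promoter windows of GRCm38.p6 in place of region centres; 170 of 231 list genes had a window. Alternatives changed normalization, filters, merging, covariates and libraries.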

Additional observations from a re-analysis of the deposited data

Results flagged for a closer look

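Among 80 checks of the 4 libraries of a stage at the named regions, 3 found a library far from the other 3; chance flags about 1 in 20 such groups. All 3 concern Thy1+ only regions, on the centred log2 scale. At the region near Col1a1, Thy1+ WT replicate 2 was at -0.22 and the others at -0.77 to -0.68. At the region near Psd2, Thy1+ KO replicate 2 was at 0.00 and the others at -0.86 to -0.77. At the Lgals9 promoter, Thy1+ WT replicate 1 was at -0.42 and the others at -0.83 to -0.77.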

How the results depend on the processing

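The 104 called regions became 206 with a replicate block (152 higher, 54 lower), 160 without regions at spermatogonial input peaks, 64 with peaks of fold enrichment 5 or more, 376 when regions called in at least 6 of 8 entered with uncalled values set to the lowest, and 0 without centring; leaving out 1 library gave 9 to 178. Quantile normalization gave 71 (45 higher, 26 lower). The causes were not tested. The interaction count was 0 under each setting fitted (282 to 601 at unadjusted p under 0.05, limma). For the 24 named regions, 345 alternative values stayed past the threshold, 84 did not, and 0 changed sign. Same-numbered libraries deviated together with correlations of 0.05 to 0.16. Replicate 1 had more peaks than replicate 2 in each group of stage and genotype. The numbers were 19135 and 17877 in Thy1+ WT and 29794 and 19638 in c-Kit+ WT. In KO they were 34681 and 21286 in Thy1+ and 36362 and 22949 in c-Kit+. Background height was also higher, and promoter share lower, in replicate 1 of each group. The replicate number thus tracked a library difference, and what it stands for is not known. Blocked exact permutation p-values for peak number and promoter share were 0.125, the smallest possible. With fold enrichment of 5 or more, the peak number difference was -0.099 (log2) and that of promoter share 0.031 points; leaving out 1 library gave 0.062 to 0.414 and -12.9 to -1.79. Counts of c-Kit+ only and Thy1+ only regions were 249 and 366 with fold enrichment of 5 or more, 548 and 551 with equal peak numbers, 250 and 82 with 4 of 4 required, and 1939 and 902 with 1 call allowed in the other stage. Leaving out 1 library gave 270 to 1868 and 94 to 703, with all 3 libraries left in that stage required. Mean adult shares of c-Kit+ only regions were 84.5% (PS) and 31.9% (RS) with fold enrichment of 5 or more, and 81.3% and 31.8% with equal peak numbers; Thy1+ only shares were 70.9% and 77.0%, and 64.3% and 72.1%. Without Thy1+ KO or c-Kit+ KO replicate 1, added after seeing the data like all settings of adult shares, c-Kit+ only shares were 76.7% to 78.9% (PS) and 25.6% to 30.8% (RS), and Thy1+ only shares 47.9% to 59.2% and 67.7% to 70.7%.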
